A study of Bos taurus with 9 samples.

Results

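Gland fragments isolated from bovine endometrium round up into cysts in Matrigel alone (CYST group) and elongate into uterine gland-like structures when EGF is added (UG-LIKE group), and the transcriptomes of both were compared on day 5 of culture. The comparison used 6 of the 9 libraries of the study, chosen by their labels alone, with 3 libraries per group. The CYST libraries carried the label Control and the UG-LIKE libraries the label EGF, and the other 3 libraries came from EGF cultures with type I collagen in the matrix. Both groups shared Matrigel and a serum-free medium with albumin, ascorbic acid, transferrin, selenite and insulin. The glands came from slaughterhouse uteri in the luteal phase, and the labels do not say which libraries came from the same animal.

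Uterine glands are epithelial tubes that secrete proteins, lipids and other nutrients into the uterine lumen, where they feed the conceptus before it attaches. EGF binds EGFR, a receptor tyrosine kinase at the cell surface that signals through the ERK and PI3K pathways. An epithelium in Matrigel is enclosed by basement membrane proteins and faces its lumen with the apical membrane, so genes of junctions, matrix contact, secretion, defence and metabolism were grouped here into 34 functional lists.

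The libraries held 6568968 to 17936445 gene counts each, and 12074 of the 20679 listed genes passed the filter on low counts. Genes with an adjusted p under 0.05 by edgeR's quasi-likelihood test, a Log2FC (UG-LIKE against CYST) above 1 or below -1 and a TPM above 1 in each of the 6 libraries were taken as DEGs. Upregulated DEGs in the UG-LIKE group numbered 87, or 0.721% of the genes tested, and downregulated DEGs 88, or 0.729%. The sample titles number the replicates 1 to 3 in both groups, and with this number as a block in the test 354 genes (2.93%) were upregulated and 372 (3.08%) downregulated, among them all 175 found without it. Leaving out 1 library changed the number of DEGs widely, to 6 without CYST replicate 1, 5 without CYST replicate 2, 8 without UG-LIKE replicate 1, 27 without UG-LIKE replicate 2, 102 without UG-LIKE replicate 3 and 227 without CYST replicate 3. The Log2FC of all 175 DEGs kept its sign in each of these fits. As they were selected for a large difference in the same libraries, this is a description and no added support. Below, a gene called a DEG passed without the block, a gene called only with the block is named as such, and TPM (a transcript level scaled for gene length and depth) is given in the order of replicates 1, 2 and 3.

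Markers of cell types were checked first. All 10 markers of gland epithelium were found above 1 TPM, with a summed level of 20469 to 22759 TPM in the CYST group and 32212 to 49853 TPM in the UG-LIKE group. The gland transcription factor FOXA2 was the lowest of them, at 4.83, 1.40 and 1.64 TPM in the CYST group and 2.33, 1.84 and 12.4 TPM in the UG-LIKE group. The keratin KRT19 measured 8079, 7413 and 7763 TPM in the CYST group against 23887, 15458 and 12476 TPM. It was the only gland marker among the DEGs, with the block alone (Log2FC 1.09, adjusted p = 0.0318). KRT19 and KRT8 made up most of each sum, with KRT8 at 8884, 8108 and 7952 TPM against 17769, 15536.5 and 13166 TPM. Of the 10 markers, 9 had a Log2FC above 0 (median 0.79). CLDN4 measured 672, 865 and 1019 TPM against 666, 830 and 632 TPM, and KRT7, KRT18 and FOXA2 overlapped between the groups. Markers of stromal fibroblasts summed to 2058 to 4697 TPM in the CYST group and 801 to 3179 TPM in the UG-LIKE group. Of the 9 tested, 8 had a Log2FC below 0 (median -0.65, pair medians -0.23, -1.64 and -0.42), and 1, DCN, was downregulated with the block. Smooth muscle markers summed to 121 to 175 TPM against 41.0 to 89.0 TPM, and 5 of the 6 tested had a Log2FC below 0 (median -0.75). Leukocyte markers summed to 24.9 to 52.5 TPM and endothelial markers to 17.0 to 37.4 TPM over all 6 libraries, ciliated cell markers ranged from 51.6 to 116 TPM, and the B cell marker CD79A was at 0 in each library. In RNA from whole cultures, fewer cells of a type and less RNA per cell cannot be told apart. The part of stromal and smooth muscle cells in the changes described below was not tested.

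**Figure D1:**
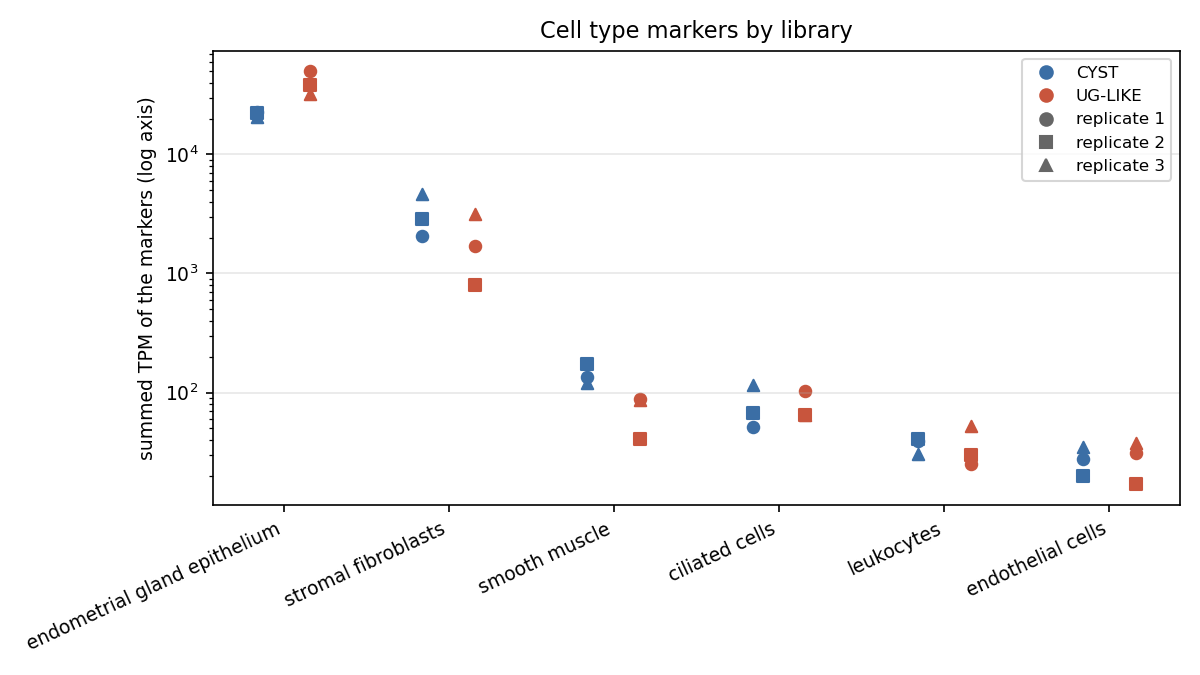
Summed TPM (log axis) of the markers of 6 cell types in each library, with CYST libraries in blue, UG-LIKE libraries in red and the replicate number as the symbol. The gland epithelium sums, made up mostly of KRT8 and KRT19, start at 32212 TPM in the UG-LIKE libraries and reach 22759 TPM in the CYST libraries. The smooth muscle sums of the UG-LIKE libraries lie below those of the CYST libraries, and the other 4 cell types overlap.

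Secreted products of the gland were among the genes with the largest decreases, and GRP had the smallest p of all DEGs. GRP encodes gastrin-releasing peptide, a hormone that endometrial glands secrete, and lies at chr24:58203569-58216345 (plus strand, ARS-UCD2.0). It measured 38815, 40216 and 47757 TPM in the CYST group, the level of a dominant transcript, and 361, 183 and 264 TPM in the UG-LIKE group. The group means were 42263 ± 4809 and 269.7 ± 89.2 TPM (SD, n = 3), and the Log2FC was -7.33 ± 0.379 (SE, adjusted p = 0.000686). The gene ENSBTAG00000007392 has no symbol in the files and lies at chr21:59163924-59174909 (minus strand), where the RefSeq annotation of the same assembly places SERPINA14, the uterine milk protein, a serpin secreted by uterine glands of ruminants. Its transcripts measured 5616, 5483 and 7778 TPM in the CYST group and 20.8, 26.4 and 59.4 TPM in the UG-LIKE group (Log2FC -7.49 ± 0.569 SE, adjusted p = 0.00673). This gene was looked up after its values had been seen and stands outside the list counts. For both genes the lowest CYST library exceeded the highest UG-LIKE library, and in one direction or the other the TPM of the groups did not overlap for 23.7% of all genes tested.

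Among the 34 tested secreted products of the uterine gland, 2 were DEGs, GRP and RBP4, and both were downregulated. RBP4, the carrier that takes retinol out of cells into the lumen, measured 1402, 2104 and 916 TPM in the CYST group and 284, 374 and 429 TPM in the UG-LIKE group (Log2FC -1.99 ± 0.282 SE, adjusted p = 0.0269). The median Log2FC over the list was -0.24 without the block, beside 0.0124 over all genes tested, and -0.0208 with it, beside 0.00504. Without 1 library the first of these ran from -0.87 (UG-LIKE replicate 3 left out) to -0.0126 (UG-LIKE replicate 1 left out). With the block, 4 members were upregulated and 5 downregulated. The upregulated members included TFF3, a trefoil peptide that protects mucosal surfaces, at 74.6, 35.6 and 146 TPM against 415, 807 and 411 TPM (Log2FC 2.77, adjusted p = 0.0265 with the block). IGFBP3, which binds insulin-like growth factors outside the cell, measured 6.20, 4.08 and 39.7 TPM in the CYST group and 91.6, 89.5 and 1197 TPM in the UG-LIKE group (Log2FC 4.43, adjusted p = 0.000327 with the block). Without the block its Log2FC was 4.67 and became 2.26 without UG-LIKE replicate 3, which held the highest value. The galectin LGALS3 and the protein WFDC18 were the other upregulated members with the block, and the lysosomal proteases CTSH and CTSC and the glycoprotein hormone STC1 the downregulated ones. CTSC, a cathepsin that activates other proteases, measured 36.9, 21.7 and 19.3 TPM in the CYST group and 9.42, 10.02 and 12.5 TPM in the UG-LIKE group (Log2FC -1.24, adjusted p = 0.0251 with the block).

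**Figure D2:**
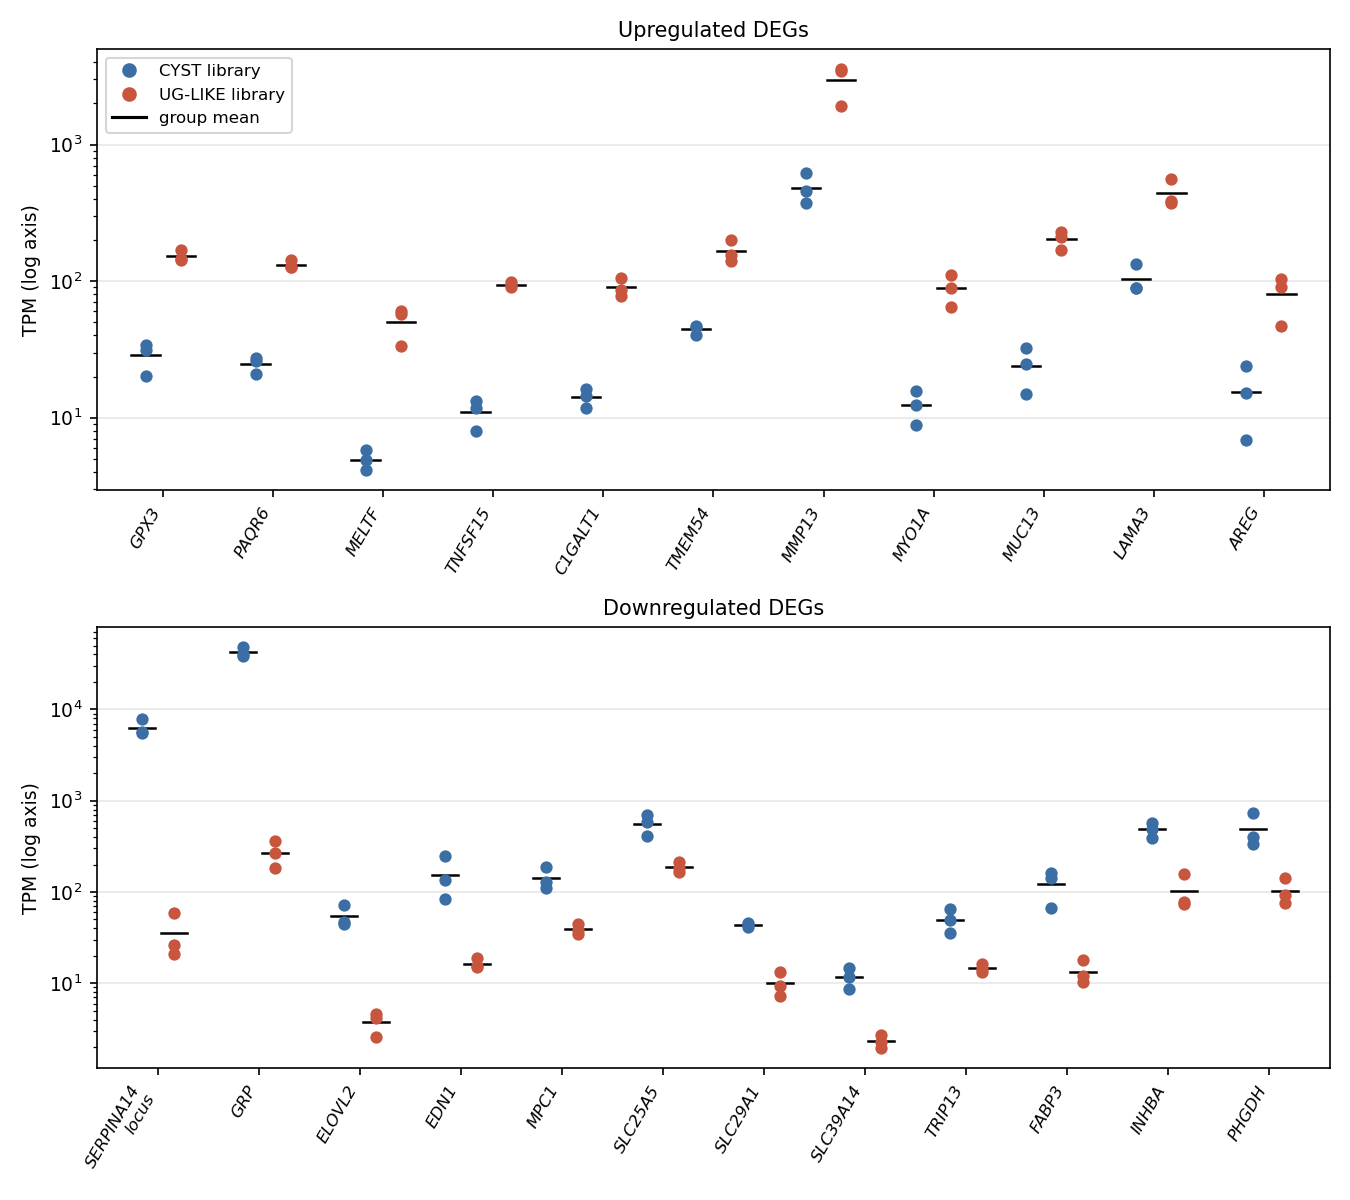
TPM (log axis) per library of 11 upregulated and 12 downregulated DEGs, with CYST libraries in blue, UG-LIKE libraries in red and a line at each group mean. The GRP and SERPINA14 points drop from 38815 to 47757 and 5483 to 7778 TPM down to 183 to 361 and 20.8 to 59.4 TPM, and in every gene drawn the libraries of the groups do not overlap. The genes drawn are DEGs, selected for a difference in the same libraries, and over all genes tested 23.7% do not overlap.

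The other leading DEGs given here were taken outside the S and G2/M phase gene lists of the cell cycle and had several functions. Of the S phase list 8 of 41 tested genes were downregulated DEGs, among them MCM5, and of the G2/M list 2 of 54. The vasoconstrictor peptide EDN1 (endothelin) measured 248, 134 and 83.3 TPM in the CYST group and 18.7, 15.5 and 15.2 TPM in the UG-LIKE group (Log2FC -3.21 ± 0.353 SE, adjusted p = 0.0178). PAQR6, a membrane progestin receptor, was upregulated from 20.8, 27.3 and 26.2 TPM to 143, 126 and 126 TPM (Log2FC 2.39 ± 0.212 SE, adjusted p = 0.00866). C1GALT1, the galactosyltransferase that builds the core of mucin-type sugar chains, was upregulated from 11.8, 14.4 and 16.4 TPM to 78.4, 105 and 85.9 TPM (Log2FC 2.63 ± 0.252 SE, adjusted p = 0.00965). The membrane protein TMEM54 measured 46.5, 45.8 and 40.5 TPM against 200, 141 and 155 TPM (Log2FC 1.89, adjusted p = 0.013). Outside these 2 lists, transporters and a mitotic checkpoint gene were among the downregulated DEGs of smallest p. The mitochondrial pyruvate carrier subunit MPC1 measured 188, 129 and 112 TPM against 44.6, 34.8 and 38.5 TPM (Log2FC -1.87), and the mitochondrial ADP/ATP carrier SLC25A5 measured 689, 583 and 414 TPM against 183, 215 and 166 TPM (Log2FC -1.58). SLC29A1, a nucleoside transporter of the plasma membrane, was at 45.5, 43.7 and 41.7 TPM in the CYST group and 9.46, 7.34 and 13.2 TPM in the UG-LIKE group (Log2FC -2.13). These 3 had the same adjusted p of 0.0216. TRIP13, an ATPase of the spindle checkpoint, measured 64.5, 49.4 and 35.2 TPM against 16.3, 13.3 and 14.2 TPM (Log2FC -1.76, adjusted p = 0.0242).

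The lists held 1378 symbols, of which 1102 were tested, and DEGs made up 33 of these in the test without the block and 117 in the test with it. Over all tested genes with a symbol the shares called were 1.47% without the block and 6.02% with it. The lists were written with earlier results of these data known, and the counts of calls per list below stand beside these shares. With the block, 29 of the lists held a DEG. The lists had 11 to 66 tested genes, and a list of such a size can hold a DEG at the share over all genes. This count therefore does not set the lists apart. In 11 lists the median Log2FC and the medians of all 3 same-numbered pairs were above 0, and in 7 lists they were below 0. The upper end was held by lists of the epithelial surface and of EGF receptor ligands, and the lower end by lists of amino acid supply, retinoid handling, oxidative phosphorylation and fatty acid metabolism. Leaving out 1 library moved the medians of 25 of 33 lists by over 1.5 times and turned the sign of 11 of them. The other 8 were desmosomes, tight and adherens junctions, the apical membrane, EGF receptor ligands, the TGF-beta pathways, amino acid supply, oxidative phosphorylation and lysosomes. For comparison, the S and G2/M phase genes had medians of -1.19 and -1.03, with 0 of 41 and 0 of 54 members above 0.

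**Figure D3:**
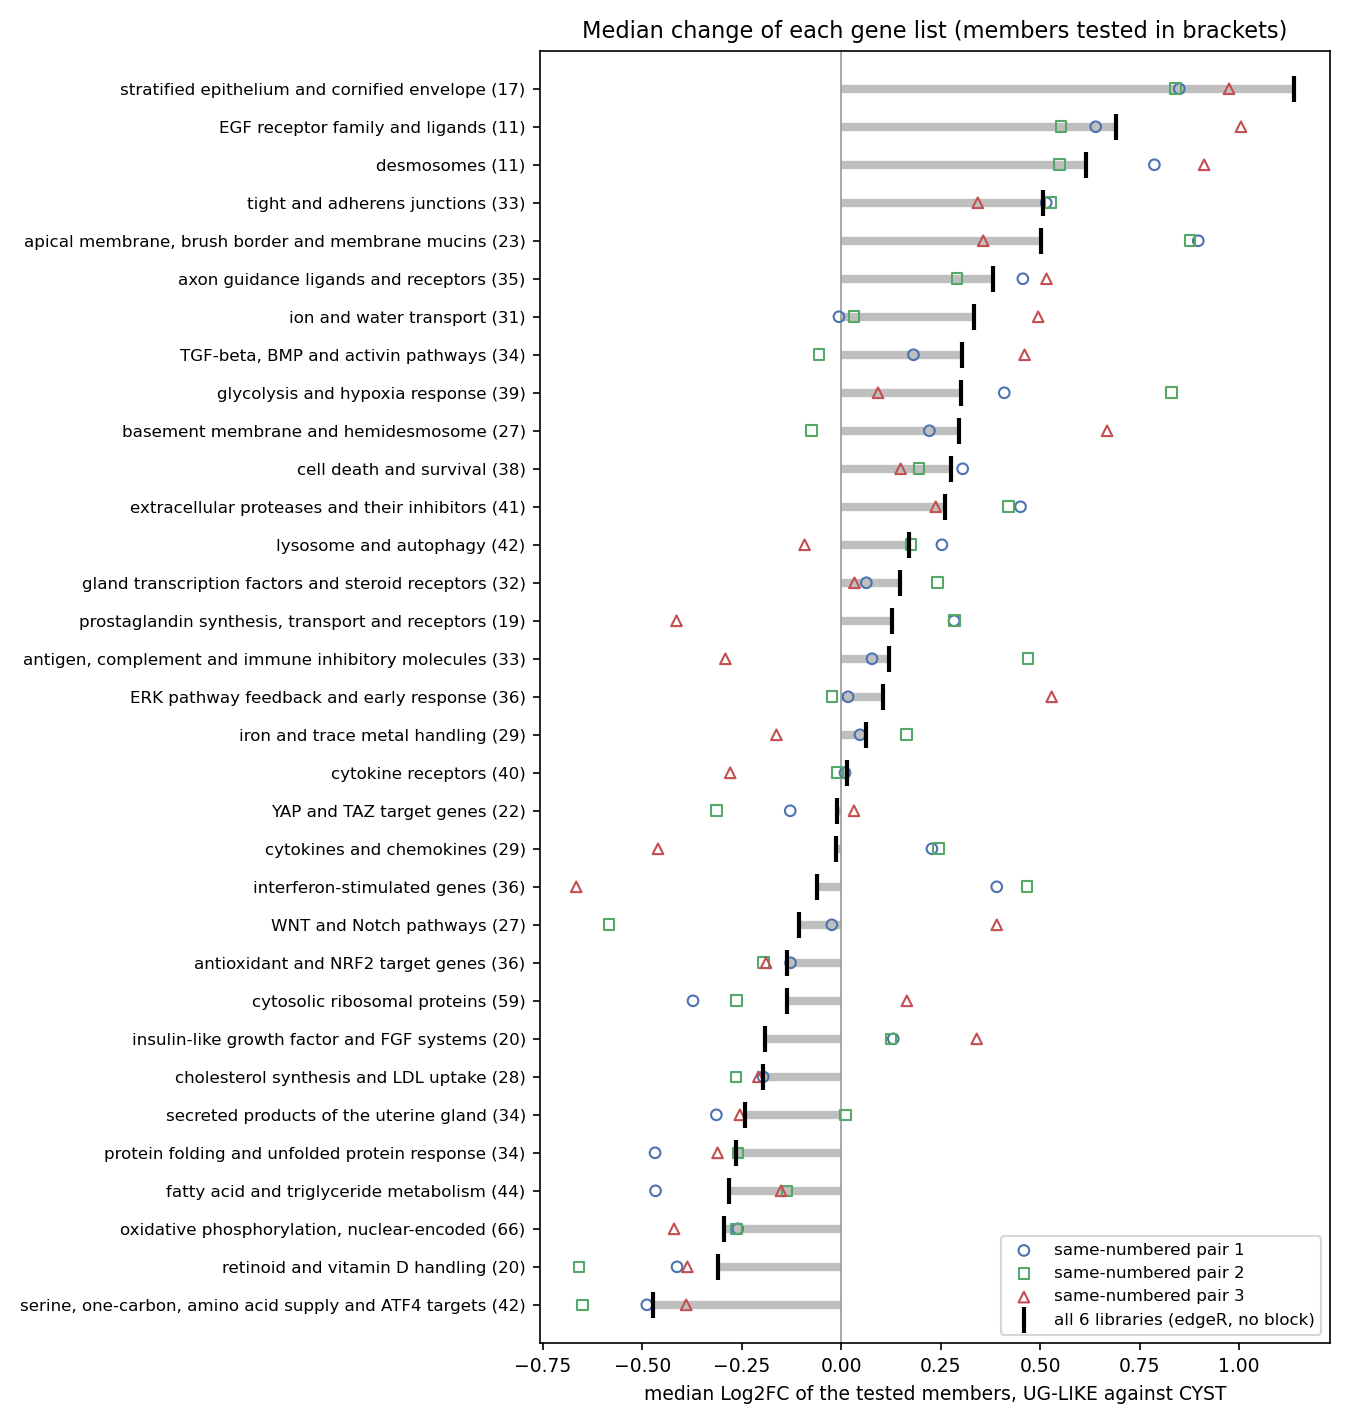
Median Log2FC of the tested members of 33 of the 34 gene lists (black bars, edgeR without the block) and the median log2 difference between the UG-LIKE and the CYST library of each same-numbered pair (open symbols), with the number of members tested in brackets. The medians run from 1.14 for stratified epithelium to -0.47 for serine, one-carbon and amino acid supply, and in 16 lists the pairs or the pooled median lie on both sides of 0.

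Lists of the epithelial surface were among those with the highest medians. Of 17 tested genes of stratified epithelium and the cornified envelope, the protein shell of surface keratinocytes, 12 had a Log2FC above 0, the median was 1.14, and 1 was a DEG. Without UG-LIKE replicate 3 the median was 0.50. SCEL (sciellin), a precursor of that shell, measured 33.4, 37.9 and 28.9 TPM in the CYST group and 93.0, 218 and 86.3 TPM in the UG-LIKE group (Log2FC 1.98 ± 0.355 SE, adjusted p = 0.045). EVPL, a plakin that links the shell to desmosomes, and SPRR3, one of its small proline-rich proteins, were upregulated only with the block. EVPL rose from 1.75, 1.82 and 6.24 TPM to 17.2, 20.1 and 32.7 TPM (Log2FC 3.01, adjusted p = 0.0032), and SPRR3 from 26.9, 31.9 and 299 TPM to 1054, 1429 and 2669 TPM (Log2FC 4.62, adjusted p = 0.00506). CYST replicate 3 was higher than the other CYST libraries for both, and without it the unblocked Log2FC of SPRR3 was 5.97 in place of 3.69. Of the 36 genes listed for this group, 28 were in the table, and the highest count among the 11 of these that were not tested was 27 reads, of CRNN (cornulin) in UG-LIKE replicate 3.

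Members of the stratified epithelium and desmosome lists that were near absent in the CYST group failed the TPM criterion. CSTA, a cysteine protease inhibitor of the cornified envelope, had 0, 3 and 4 reads in the CYST libraries and 45, 141 and 89 reads in the UG-LIKE libraries, a ratio of 36.9 after scaling to library size (95% interval 17.7 to 92.8, for counting error only). MAL, a protein of apical membrane rafts, had 4, 8 and 13 reads against 103, 451 and 412, a ratio of 36.3 (24.5 to 56.4). The desmosomal cadherin DSG3, typical of the lower layers of stratified epithelia, had 5, 12 and 2 reads against 123, 163 and 323, a ratio of 30.1 (19.1 to 50.4). As these genes passed the filter through the UG-LIKE group, they had to differ in that direction, and the list medians include them.

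Desmosomes join neighbouring epithelial cells through cadherins anchored to keratins. All 11 tested desmosome genes had a Log2FC above 0, with a median of 0.62, and DSC2 was the only DEG, at 72.8, 107 and 67.6 TPM in the CYST group and 170, 208 and 297 TPM in the UG-LIKE group (Log2FC 1.46 ± 0.268 SE, adjusted p = 0.0462). Of 33 genes of tight and adherens junctions, 26 had a Log2FC above 0 and the median was 0.51. CLDN23, a claudin of the tight junction, was a DEG, at 3.03, 4.84 and 2.95 TPM against 19.9, 22.4 and 8.37 TPM (Log2FC 2.21 ± 0.41 SE, adjusted p = 0.0462). With the block, the adhesion molecule NECTIN4 (Log2FC 1.08, adjusted p = 0.0307) and the junction-actin linker CGNL1 (Log2FC 1.29, adjusted p = 0.0135) were upregulated, while CLDN8, a claudin of sodium-tight epithelia, was downregulated from 88.9, 38.0 and 34.3 TPM to 5.51, 11.3 and 19.4 TPM (Log2FC -2.09, adjusted p = 0.0422). CLDN11, a claudin best known from myelin and testis, was seen at 12, 28 and 17 reads in the CYST libraries and at 0, 1 and 0 in the UG-LIKE libraries, and as it passed the filter through the CYST group it had to differ in that direction. The gland epithelium markers described above had a median Log2FC of 0.79 beside these lists, and their part in the changes was not tested.

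Of 23 genes of the apical membrane, brush border and membrane mucins, 17 had a Log2FC above 0 (median 0.50), and the DEGs were divided between 2 upregulated and 2 downregulated. The membrane mucin MUC13 measured 15.0, 24.7 and 32.2 TPM in the CYST group and 168, 229 and 211 TPM in the UG-LIKE group (Log2FC 3.03 ± 0.359 SE, adjusted p = 0.0216). MYO1A, the myosin that tethers microvillar actin to the membrane, measured 8.90, 12.4 and 15.7 TPM against 111, 89.6 and 64.1 TPM (Log2FC 2.79 ± 0.329 SE, adjusted p = 0.0216). ANPEP and MME, peptidases listed for the same membrane, went the other way. ANPEP (aminopeptidase N) fell from 215, 86.8 and 176 TPM to 12.2, 9.87 and 27.1 TPM (Log2FC -3.30 ± 0.524 SE, adjusted p = 0.0349), and MME (neprilysin) from 104, 85.8 and 30.4 TPM to 9.73, 15.2 and 18.4 TPM (Log2FC -2.29 ± 0.412 SE, adjusted p = 0.045). The mucins MUC1 and MUC20 and the actin capping protein EPS8 were upregulated only with the block, and the scaffold PDZK1 and the sialomucin PODXL downregulated.

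Ion and water transport, which sets the volume of a closed lumen, had a median of 0.33 over 31 tested genes, and 2 DEGs, or 4 with the block, all upregulated. The pair medians were -0.00570, 0.0323 and 0.50, and the pooled median was 0.61 without CYST replicate 1 and 0.13 without CYST replicate 3. FXYD3, a regulator of the sodium pump, measured 9.24, 8.07 and 7.77 TPM in the CYST group and 41.6, 34.8 and 29.0 TPM in the UG-LIKE group (Log2FC 2.05 ± 0.308 SE, adjusted p = 0.0301). The calcium-activated potassium channel KCNN4 measured 18.3, 18.9 and 14.05 TPM against 63.3, 35.0 and 86.2 TPM (Log2FC 1.86 ± 0.337 SE, adjusted p = 0.045). The bicarbonate cotransporters SLC4A7 and SLC4A4 were called only with the block, at Log2FC 1.25 and 1.41 (adjusted p = 0.0225 and 0.0302).

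Among genes of matrix contact, LAMA3, the laminin chain of the basement membrane that hemidesmosomes grip, was upregulated from 88.8, 89.1 and 133 TPM to 389, 372 and 557 TPM (Log2FC 2.04 ± 0.321 SE, adjusted p = 0.0337). Its partner chain LAMB3 measured 290, 221 and 279 TPM against 1023, 382 and 1175 TPM and was called with the block (Log2FC 1.55, adjusted p = 0.0125), as was the downregulation of LAMB1, the beta chain of other laminins, from 33.8, 46.9 and 22.4 TPM to 12.9, 15.0 and 20.5 TPM (Log2FC -1.07, adjusted p = 0.0421). COL17A1, a transmembrane collagen of hemidesmosomes, had 24, 8 and 9 reads in the CYST libraries and 285, 498 and 790 in the UG-LIKE libraries, a ratio of 36.1 (95% interval 26.5 to 50.5), and passed the filter through the UG-LIKE group, which fixed its direction. The remaining genes of this list spread on both sides of 0, and 18 of the 27 tested were above it (median 0.30, and 0.47 without CYST replicate 1, 0.12 without CYST replicate 3 and 0.50 without UG-LIKE replicate 2).

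Matrix proteases that passed went in opposite directions. The collagenase MMP13 was upregulated from 375, 618 and 456 TPM to 3452, 3556 and 1919 TPM (Log2FC 2.61 ± 0.295 SE, adjusted p = 0.0191), and was the only DEG among 41 tested proteases and inhibitors (median 0.26, and 0.56 without CYST replicate 3 and 0.40 without UG-LIKE replicate 1). The stromelysin MMP3 measured 3588, 3658 and 4310 TPM in the CYST group and 1437, 1149 and 2105 TPM in the UG-LIKE group and was downregulated with the block (Log2FC -1.35, adjusted p = 0.00725), as were MMP9, MMP1 and ADAMTS4. ADAMTS1, a protease that cleaves proteoglycans, was upregulated with the block, from 22.0, 3.24 and 3.80 TPM to 151, 36.4 and 61.3 TPM (Log2FC 3.40, adjusted p = 0.00142), and so was the kallikrein KLK10 (Log2FC 1.13, adjusted p = 0.0478). In TPM, MMP3 stood above MMP13 in every CYST library, and MMP13 above MMP3 in 2 of the 3 UG-LIKE libraries.

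Among genes typical of contractile cells, the actin-binding TAGLN (104, 66.1 and 106 TPM against 39.1, 16.2 and 45.1 TPM, Log2FC -1.57, adjusted p = 0.00719) and the tropomyosin TPM2 (Log2FC -1.46, adjusted p = 0.0187) were downregulated with the block, and neither was a DEG without it. The smooth muscle and stromal marker sums were lowest in UG-LIKE replicate 2, as were both genes, and the part of these cells in the change was not tested. YAP and TAZ target genes divided evenly, with 11 of 22 above 0. In that list IGFBP3 and the ectonucleotidase NT5E were upregulated with the block, and the matricellular proteins CCN1 and CCN2 and the transmembrane protein CRIM1 downregulated. NT5E differed more between replicate numbers than between groups, with 41.6, 178 and 7.16 TPM in the CYST group and 207, 601 and 9.72 TPM in the UG-LIKE group (Log2FC 1.55, adjusted p = 0.0388 with the block and 0.454 without). Without UG-LIKE replicate 2 its unblocked Log2FC of 1.93 was 0.59, and without CYST replicate 2 it was 3.51. For CCN1, an unblocked Log2FC of -1.20 became -0.75 without CYST replicate 1.

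**Figure D4:**
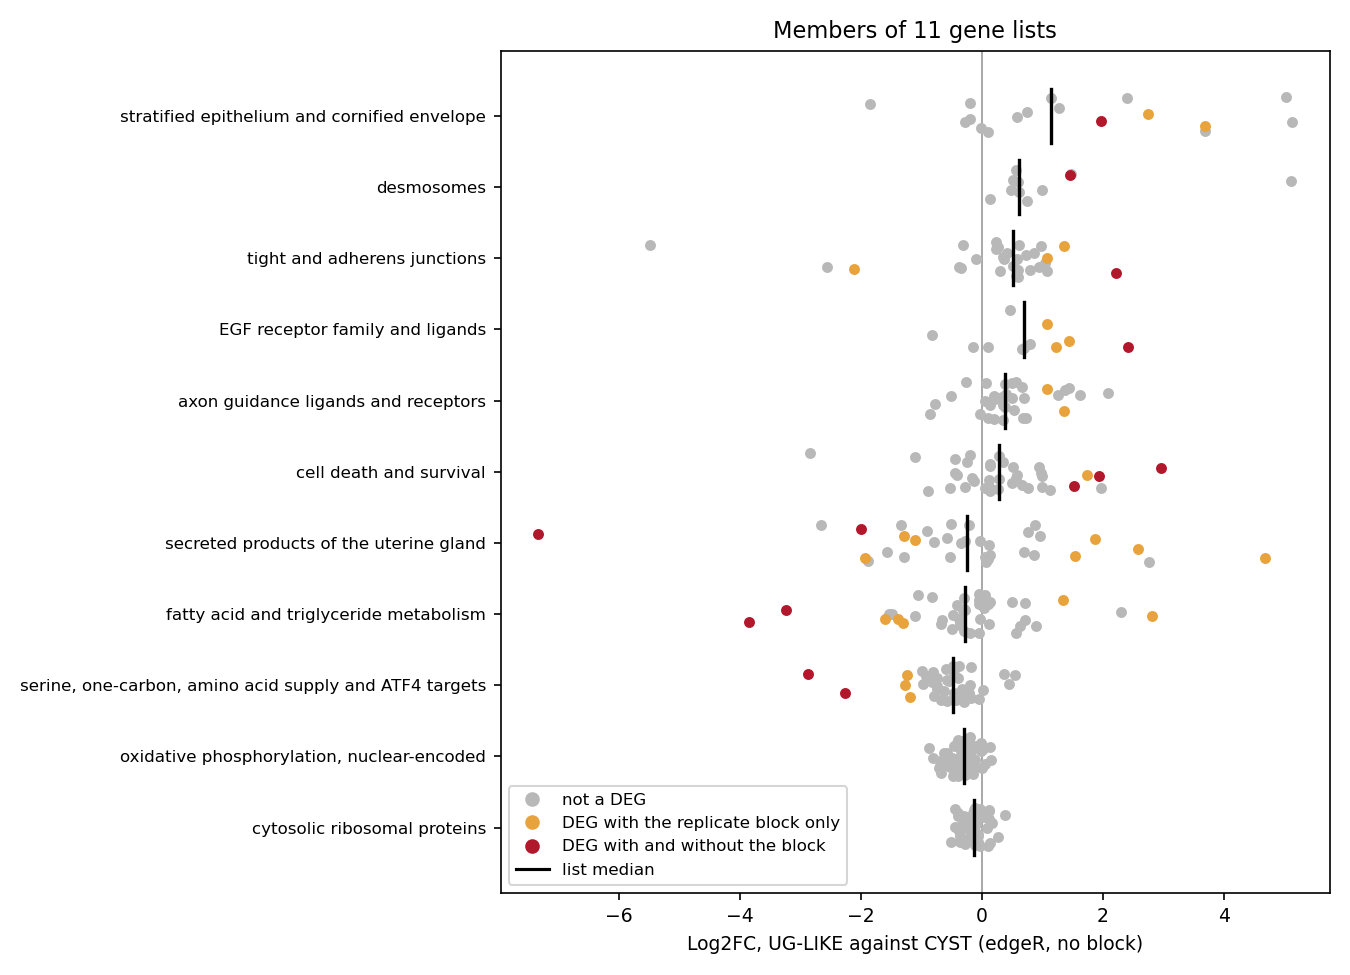
Log2FC of each tested member of 11 lists, with the list median as a line and the DEG status as colour. Desmosome genes all lie above 0, oxidative phosphorylation genes lie above 0 in 4 of 66 cases and between -0.88 and 0.16, and the secreted products of the gland spread from -7.33 to 4.67.

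Signalling genes began with the EGF family itself. Of 11 tested receptors, ligands and ligand-releasing proteins, 9 had a Log2FC above 0 (median 0.69). AREG (amphiregulin), a ligand of EGFR, measured 15.3, 24.1 and 6.81 TPM in the CYST group and 90.6, 104 and 46.9 TPM in the UG-LIKE group (Log2FC 2.42 ± 0.428 SE, adjusted p = 0.0448). The ligands BTC (betacellulin, Log2FC 1.45, adjusted p = 0.0243) and TGFA (Log2FC 1.26, adjusted p = 0.0226) and the rhomboid-like protein RHBDF1, which helps to release such ligands (Log2FC 1.10, adjusted p = 0.0262), were called with the block, which for RHBDF1 stood beside overlapping groups and an unblocked Log2FC of 1.08 that was 0.61 without UG-LIKE replicate 1. The receptor EGFR measured 29.9, 30.1 and 16.2 TPM against 44.5, 28.8 and 56.6 TPM and did not pass (Log2FC 0.80, adjusted p = 0.18). Genes of ERK feedback and early response held no DEG without the block among 36 tested, where DEGs made up 1.47% of all tested genes with a symbol. With the block 5.56% of the list was called, near the 6.02% of those genes. FOSL1, an AP-1 subunit that ERK stabilizes, was downregulated with the block from 7.42, 10.5 and 26.8 TPM to 2.70, 2.44 and 5.96 TPM (Log2FC -1.96, adjusted p = 0.0173), and its unblocked value of -2.08 was -1.16 without CYST replicate 3. JUND, another AP-1 subunit, was upregulated with the block (Log2FC 1.22, adjusted p = 0.0463), and its unblocked value of 1.37 was 0.80 without UG-LIKE replicate 3.

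INHBA, which encodes the subunit of activin A, was the only DEG among 34 genes of the TGF-beta, BMP and activin pathways. Its level was 493, 575 and 391 TPM in the CYST group and 76.9, 156 and 73.7 TPM in the UG-LIKE group (Log2FC -2.25 ± 0.309 SE, adjusted p = 0.0256). The subunit INHBB was downregulated with the block from 19.7, 13.8 and 7.80 TPM to 6.80, 4.97 and 2.15 TPM (Log2FC -1.62, adjusted p = 0.0152), while the BMP target ID3 was upregulated (Log2FC 1.36, adjusted p = 0.0444) with overlapping groups. In the WNT and Notch pathways, of 27 genes tested only WNT5A, a ligand of the non-canonical branch, was called, with the block (42.3, 54.2 and 51.1 TPM against 29.0, 15.9 and 31.6 TPM, Log2FC -1.02, adjusted p = 0.0416). Insulin-like growth factor and FGF genes had 9 of 20 members above 0, and 4 were upregulated with the block. Beside IGFBP3 these were FGFBP1, which carries FGFs out of the matrix (151, 67.2 and 198 TPM against 367, 307 and 527 TPM, Log2FC 1.61, adjusted p = 0.0118), the receptor kinase MST1R (Log2FC 1.19, adjusted p = 0.0211) and the insulin receptor INSR (Log2FC 1.13, adjusted p = 0.0463). Axon guidance genes, which also steer epithelial branching, had 30 of 35 members above 0 (median 0.38, and 0.18 without UG-LIKE replicate 3) and no DEG without the block. With it 2 were called, the semaphorin SEMA4G (Log2FC 1.36, adjusted p = 0.0277) and the ephrin EFNB1 (Log2FC 1.04, adjusted p = 0.0304). This was 5.71% of the list, and the call of WNT5A was 3.70% of the WNT and Notch list, beside 6.02% of all tested genes with a symbol.

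Gland transcription factors and steroid receptors held 1 DEG. Of 32 tested, 17 were above 0 (median 0.15, ranging from 0.0329 without UG-LIKE replicate 1 to 0.42 without CYST replicate 3), and the DEG was PAQR8, a membrane progestin receptor like PAQR6, at 33.8, 25.6 and 19.9 TPM against 58.9, 69.2 and 52.9 TPM (Log2FC 1.19 ± 0.201 SE, adjusted p = 0.0403). The homeobox gene MSX1 was upregulated with the block (Log2FC 1.02, adjusted p = 0.0422). With the block 6.25% of this list was called, near the 6.02% of all tested genes with a symbol. The nuclear estrogen receptor ESR1 measured 35.5, 30.6 and 17.7 TPM in the CYST group and 23.9, 26.6 and 18.5 TPM in the UG-LIKE group (Log2FC -0.27, adjusted p = 0.566), and the progesterone receptor PGR did not exceed 2.18 TPM in any library. No gene of prostaglandin synthesis, transport or response was a DEG in either fit among 19 tested. AKR1B1, an aldose reductase that can make prostaglandin F, measured 784, 788 and 748 TPM against 431, 360 and 463 TPM, with non-overlapping groups and a Log2FC of -0.91 (adjusted p = 0.0179 with the block, 0.0569 without) that did not reach -1. PTGES3, a prostaglandin E synthase and chaperone, had a Log2FC of -0.42 (adjusted p = 0.273).

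Of 20 tested genes of retinoid and vitamin D handling, 5 were above 0 (median -0.31, and -0.17 without UG-LIKE replicate 3, -0.48 without CYST replicate 3 or UG-LIKE replicate 1), with RBP4 downregulated as above. With the block, 3 members were upregulated. ALDH1A3, a retinaldehyde dehydrogenase, measured 35.7, 15.4 and 110 TPM in the CYST group and 366, 303 and 508 TPM in the UG-LIKE group (Log2FC 3.27, adjusted p = 0.00756). The retinol dehydrogenase RDH10 measured 40.1, 28.4 and 39.6 TPM against 80.2, 77.9 and 113 TPM (Log2FC 1.31, adjusted p = 0.0096), and the retinoic acid carrier CRABP2 8.18, 12.5 and 13.2 TPM against 67.5, 159 and 29.0 TPM (Log2FC 2.64, adjusted p = 0.0232). In each of these 3 genes all UG-LIKE libraries lay above all CYST libraries. They were selected for a difference in the same libraries, and over all genes tested 23.7% did not overlap in either direction.

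**Figure D5:**
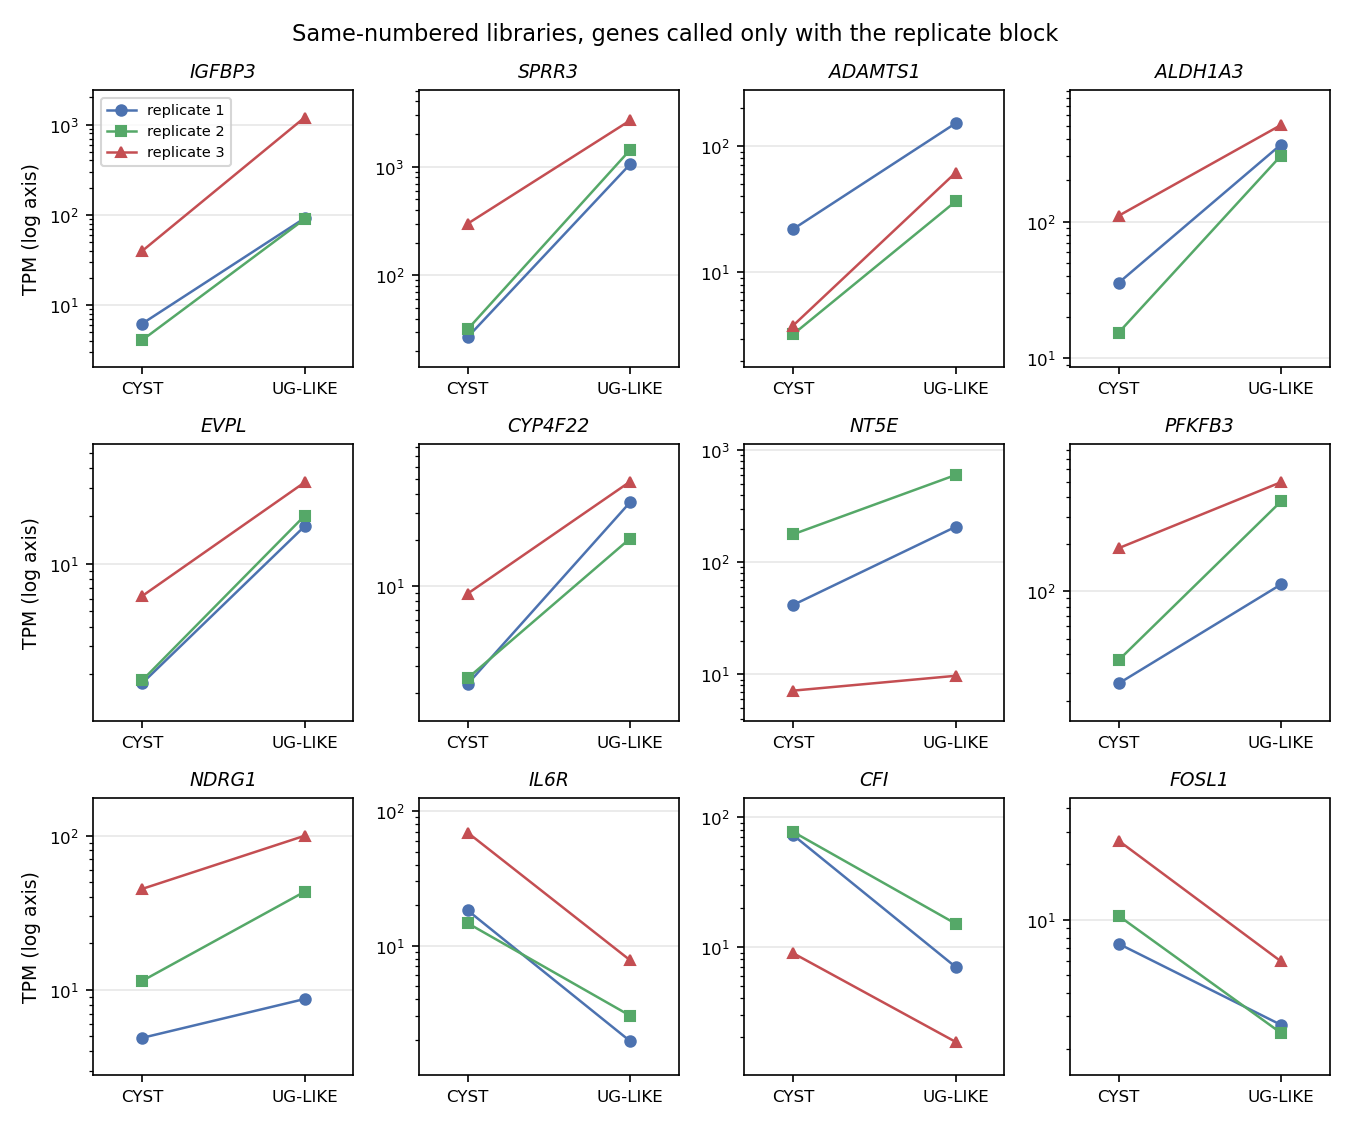
TPM (log axis) of 12 genes that were DEGs only with the replicate block, with a line joining the CYST and UG-LIKE library of the same number. The lines of each gene run in the same direction from different starting levels, as for NT5E, which starts at 41.6, 178 and 7.16 TPM and ends at 207, 601 and 9.72 TPM. Genes called with the block are selected for such agreement, so the shared direction is no evidence of pairing.

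Among 29 tested cytokines and chemokines (14 above 0), 2 members of the TNF superfamily were DEGs. TNFSF15, a cytokine that costimulates lymphocytes, measured 13.2, 8.05 and 11.8 TPM in the CYST group and 91.2, 97.7 and 94.0 TPM in the UG-LIKE group (Log2FC 3.07 ± 0.289 SE, adjusted p = 0.00956). TNFSF9, the ligand of a T cell costimulatory receptor, measured 12.7, 10.9 and 11.7 TPM against 33.2, 31.8 and 28.8 TPM (Log2FC 1.39 ± 0.236 SE, adjusted p = 0.0403). With the block, the alarmin TSLP and the death ligand TNFSF10 were upregulated too, and the chemokines CXCL2, CXCL5 and CXCL14 downregulated. CXCL2, which attracts neutrophils, measured 66.7, 38.1 and 26.3 TPM against 16.8, 9.13 and 17.3 TPM (Log2FC -1.56, adjusted p = 0.0298).

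CXCR4, the receptor of CXCL12, was the only DEG among 40 tested, at 52.4, 61.7 and 29.0 TPM in the CYST group and 11.1, 14.6 and 16.0 TPM in the UG-LIKE group (Log2FC -1.75 ± 0.272 SE, adjusted p = 0.0332). With the block 6 receptors were downregulated and 1, TNFRSF21, upregulated. The cytokine receptor IL6R measured 18.3, 14.7 and 69.3 TPM against 1.95, 3.01 and 7.78 TPM (Log2FC -2.89, adjusted p = 0.00352), and its unblocked value of -3.09 was -1.83 without CYST replicate 3. The interleukin receptor IL17RB (Log2FC -2.21, adjusted p = 0.0149) and the chemokine scavenger ACKR4 (Log2FC -2.04, adjusted p = 0.0134) also belonged to these. Leukocyte markers summed to 30.4 to 40.6 TPM in the CYST group and 24.9 to 52.5 TPM in the UG-LIKE group, mostly through CD14, and CD79A was at 0. Of the 5 tested, 4 had a Log2FC below 0 (median -0.98, with pair medians of -0.58, -1.02 and -1.21) and none passed the test in either fit, so they lay on the same side of 0 as the downregulated receptors, and their part in those changes was not tested.

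No interferon-stimulated gene was a DEG in either fit. Of the 36 tested, 14 were above 0, and the pair medians differed in sign, with 0.39, 0.47 and -0.67 for pairs 1, 2 and 3. LGALS3BP, a secreted glycoprotein that interferon induces, measured 316, 334 and 377 TPM against 377, 362 and 309 TPM, and the immunoproteasome subunit PSMB8 229, 213 and 227 TPM against 253, 188 and 210 TPM. Neither differed by more than the spread between replicates (adjusted p = 0.995 and 0.886). Among antigen, complement and immune inhibitory molecules, FCGR2B, an inhibitory receptor for antibody, was upregulated with the block from 1.39, 7.42 and 5.65 TPM to 20.1, 45.8 and 36.8 TPM (Log2FC 2.96, adjusted p = 0.00343), and the complement inhibitor CFI downregulated (Log2FC -2.67, adjusted p = 0.00343). With the block 6.06% of this list was called, near the 6.02% of all tested genes with a symbol. VTCN1, a surface protein that restrains T cells, had 0, 0 and 9 reads in the CYST libraries and 224, 1648 and 532 reads in the UG-LIKE libraries, a ratio of 251 (95% interval 132 to 550). It passed the filter through the UG-LIKE group and so had to differ in that direction.

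Of 42 tested genes of serine synthesis, one-carbon metabolism, amino acid supply and ATF4 targets, only 4 were above 0 and the median was -0.47, the lowest of all lists. PHGDH, the first enzyme of serine synthesis, measured 741, 400 and 339 TPM in the CYST group and 141, 75.1 and 91.9 TPM in the UG-LIKE group (Log2FC -2.26 ± 0.342 SE, adjusted p = 0.0308). CTH, which makes cysteine from cystathionine, measured 111, 82.0 and 51.8 TPM against 17.4, 12.2 and 4.29 TPM (Log2FC -2.86 ± 0.474 SE, adjusted p = 0.0401). The folate enzymes MTHFD1 (171, 171 and 101 TPM against 49.1, 81.2 and 61.2 TPM) and MTHFD2 (54.2, 40.6 and 27.7 TPM against 20.0, 13.2 and 17.4 TPM) were downregulated with the block, at Log2FC -1.21 and -1.26 (adjusted p = 0.0177 and 0.0147), as was PSAT1, the next enzyme after PHGDH. With the block, 5 members were downregulated and 0 upregulated.

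Of 44 tested genes of fatty acid and triglyceride metabolism, 15 were above 0 (median -0.28, and -0.0749, -0.13 and -0.18 without CYST replicates 1, 2 and 3 and -0.0902 without UG-LIKE replicate 1) and 2 were DEGs. ELOVL2, which elongates polyunsaturated fatty acids, measured 71.7, 46.6 and 45.0 TPM in the CYST group and 4.66, 2.57 and 4.19 TPM in the UG-LIKE group (Log2FC -3.86 ± 0.316 SE, adjusted p = 0.00709). The fatty acid carrier FABP3 measured 142, 66.0 and 160 TPM against 10.4, 11.9 and 18.02 TPM (Log2FC -3.23 ± 0.445 SE, adjusted p = 0.0256). With the block ACSL4, which activates arachidonic acid, was downregulated from 453, 279 and 339 TPM to 127, 102 and 184 TPM (Log2FC -1.40, adjusted p = 0.00916), with ME1 and CPT1A. The hydroxylase CYP4F22, which makes the very long acylceramides of the skin barrier, was upregulated with the block from 2.30, 2.51 and 8.92 TPM to 35.1, 20.4 and 47.8 TPM (Log2FC 3.04, adjusted p = 0.00583), with the triglyceride lipase PNPLA2.

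No gene of cholesterol synthesis, oxidative phosphorylation or the cytosolic ribosome was a DEG in either fit. Cholesterol genes had 8 of 28 members above 0 (median -0.20, and -0.13 without CYST replicate 1 and -0.0117 without CYST replicate 2), and HMGCS1, an early enzyme, measured 435, 558 and 314 TPM against 350, 410 and 467 TPM (adjusted p = 0.884). MSMO1, a later one, had a Log2FC of -0.34 (adjusted p = 0.372). Of 66 nuclear genes of oxidative phosphorylation, 4 were above 0, and the pair medians were -0.26, -0.26 and -0.42. The ATP synthase subunits ATP5F1B and ATP5F1A, the highest of them, had Log2FC values of -0.35 and -0.37 (adjusted p = 0.283 and 0.254) with overlapping groups. Ribosomal protein genes had 11 of 59 members above 0 (median -0.14, ranging from -0.34 without UG-LIKE replicate 3 to 0.00378 without UG-LIKE replicate 2), but the third pair had a median of 0.16 against -0.37 and -0.26 in the others. RPL8 measured 2456, 2122 and 1970 TPM against 1762, 1468 and 1600 TPM (Log2FC -0.45, adjusted p = 0.202), and RPS18 had a Log2FC of -0.14 (adjusted p = 0.802).

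Glycolysis and hypoxia response genes lay on the other side, with 29 of 39 above 0 (median 0.30, ranging from 0.0911 without CYST replicate 2 to 0.86 without CYST replicate 3), no DEG without the block and 3 with it. PFKFB3, an enzyme that sets the pace of glycolysis, measured 25.8, 36.3 and 188 TPM in the CYST group and 111, 375 and 497 TPM in the UG-LIKE group (Log2FC 2.27, adjusted p = 0.0172). NDRG1 (4.88, 11.4 and 45.1 TPM against 8.72, 43.2 and 99.6 TPM, Log2FC 1.31, adjusted p = 0.0254) and the hypoxia-induced carbonic anhydrase CA9 (50.4, 14.8 and 127 TPM against 190, 81.7 and 191 TPM, Log2FC 1.64, adjusted p = 0.0378) followed the same pattern. In all 3 the groups overlapped, and CYST replicate 3 was the highest CYST library. Without it, the unblocked values of 1.84, 1.19 and 1.14 for PFKFB3, NDRG1 and CA9 were 3.51, 2.75 and 2.33, and those of NDRG1 without UG-LIKE replicate 3 and of CA9 without CYST replicate 2 were 0.20 and 0.69.

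Iron handling held 1 upregulated and 3 downregulated DEGs among 29 tested. MELTF (melanotransferrin), an iron-binding protein of the cell surface, was upregulated from 4.12, 5.80 and 4.88 TPM to 33.6, 57.1 and 60.1 TPM (Log2FC 3.34 ± 0.309 SE, adjusted p = 0.00956). TFRC, the receptor that takes up transferrin, was downregulated from 250, 168 and 158 TPM to 96.2, 81.9 and 69.8 TPM (Log2FC -1.22 ± 0.218 SE, adjusted p = 0.0448). The zinc and iron importer SLC39A14 measured 14.5, 11.9 and 8.66 TPM against 1.94, 2.30 and 2.74 TPM (Log2FC -2.31 ± 0.293 SE, adjusted p = 0.0216). The gene listed as SLC11A2, the endosomal iron transporter, measured 276, 331 and 165 TPM against 70.6, 22.7 and 22.9 TPM (Log2FC -2.73 ± 0.464 SE, adjusted p = 0.0403). RefSeq places SLC11A2 at another gene without a symbol, ENSBTAG00000032914 (chr5:28722059-28757970), which was also a downregulated DEG (63.4, 56.4 and 39.0 TPM against 23.4, 22.3 and 17.5 TPM, Log2FC -1.33, adjusted p = 0.0269), so which of them is the transporter is uncertain. With the block, STEAP4, a metalloreductase, was upregulated.

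GPX3, the secreted glutathione peroxidase, had the smallest p among upregulated DEGs, at 34.2, 31.5 and 20.3 TPM in the CYST group and 144, 169 and 146 TPM in the UG-LIKE group (Log2FC 2.43 ± 0.203 SE, adjusted p = 0.00709). The 36 tested antioxidant and NRF2 target genes as a whole had a median of -0.14, or 0.0267 without CYST replicate 3, with 14 above 0. With the block, GSTP1, a glutathione transferase (Log2FC 1.57, adjusted p = 0.0252), and the selenium carrier SELENOP were upregulated, and the extracellular superoxide dismutase SOD3 (13.4, 27.8 and 22.0 TPM against 3.04, 7.47 and 9.02 TPM, Log2FC -1.77, adjusted p = 0.00488), the quinone reductase NQO1 (Log2FC -1.10, adjusted p = 0.0146) and ME1 downregulated.

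Protein folding genes of the endoplasmic reticulum had 8 of 34 members above 0 (median -0.26, and -0.0710 without UG-LIKE replicate 1 and -0.42 without UG-LIKE replicate 3). The chaperone cofactor SDF2L1 measured 74.8, 96.3 and 62.3 TPM in the CYST group and 33.7, 34.4 and 32.7 TPM in the UG-LIKE group (Log2FC -1.21 ± 0.207 SE, adjusted p = 0.0411), and the stress-induced CRELD2 98.0, 119 and 99.8 TPM against 52.6, 29.6 and 44.8 TPM (Log2FC -1.33 ± 0.251 SE, adjusted p = 0.0462). MANF, secreted on endoplasmic reticulum stress, was downregulated with the block from 401, 449 and 490 TPM to 228, 174 and 247 TPM (Log2FC -1.07, adjusted p = 0.0135). The stress sensor of mucous epithelia ERN2 was upregulated with the block (Log2FC 1.02, adjusted p = 0.0306). Lysosome and autophagy genes had 27 of 42 members above 0 (median 0.17) and no DEG without the block. With it, the protease CTSD was upregulated from 108, 104 and 156 TPM to 319, 239 and 349 TPM (Log2FC 1.29, adjusted p = 0.00916), with the proton pump subunit ATP6V1B1 (Log2FC 1.57, adjusted p = 0.0277), and CTSH was downregulated from 218, 199 and 189 TPM to 115, 51.8 and 117 TPM (Log2FC -1.20, adjusted p = 0.0225), with CTSC.

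Cell death genes held 3 DEGs among 38 tested, all upregulated. This was 7.89% of the list, beside 0.721% upregulated and 0.729% downregulated over all genes tested. The apical membrane and iron lists had higher shares, 17.4% and 13.8%, and all lists were written with earlier results known. Of the cell death genes, 26 were above 0 (median 0.28, and 0.18 without UG-LIKE replicate 3). BMF, a BH3-only protein that binds and blocks BCL2, measured 6.39, 7.72 and 9.01 TPM in the CYST group and 29.2, 34.7 and 26.7 TPM in the UG-LIKE group (Log2FC 1.93 ± 0.282 SE, adjusted p = 0.0285). BCL2L14, another member of the BCL2 family, measured 4.92, 1.27 and 3.00 TPM against 27.0, 28.6 and 16.3 TPM (Log2FC 2.95 ± 0.526 SE, adjusted p = 0.0448). MLKL, the membrane-breaking effector of necroptosis, measured 7.76, 6.39 and 7.03 TPM against 23.0, 23.99 and 15.3 TPM (Log2FC 1.53 ± 0.277 SE, adjusted p = 0.045). PMAIP1 (NOXA), a further BH3-only protein, was upregulated with the block from 13.3, 18.7 and 24.9 TPM to 74.9, 79.2 and 43.5 TPM (Log2FC 1.78, adjusted p = 0.0262). In each of these genes the libraries of the groups did not overlap, as in 23.7% of all genes tested, and they were selected for a difference in the same libraries.

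Among downregulated genes that failed only the TPM criterion, the 5 of largest Log2FC were nearly silent in the UG-LIKE group. They passed the filter through the CYST group, so their direction was fixed and their values are a description. RNASE1, the secreted pancreatic-type ribonuclease, had 128, 285 and 59 reads in the CYST libraries and 0, 2 and 2 in the UG-LIKE libraries, a ratio of 125 (95% interval 48.7 to 462). SERPINB9, an inhibitor of granzyme B, had 62, 39 and 17 reads against 0, 1 and 1. The bile acid transporter SLC10A2 had 30, 39 and 17 reads against 0, 0 and 1, and the transcription factor MESP2 31, 38 and 43 reads against 0, 2 and 2. CLDN11, given above, was the fifth. As ratios scaled to library size, SERPINB9 stood at 62.7 (17.0 to 524), SLC10A2 at 91.5 (16.0 to 3654), MESP2 at 29.8 (11.3 to 111) and CLDN11 at 60.6 (10.4 to 2436).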

How the data were processed

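Total RNA of cultured bovine uterine gland fragments was measured by RNA-seq (SMART-Seq HT PLUS libraries). After trimming, reads were mapped by the authors to the bovine assembly with CLC Genomics Workbench at its default settings. The authors deposited raw counts per gene and TPM for the same genes. The annotation release and strand setting are not given in the sources used here, so overlapping antisense genes could not be told apart. Deposited TPM were used for levels and deposited counts for tests. The counts were filtered by filterByExpr (minimum count of 10), scaled by TMM and tested by edgeR 4.0.16 (glmQLFit, glmQLFTest, R 4.3.3) on the 6 libraries, and p-values were adjusted by Benjamini-Hochberg over 12074 genes. SE is the Log2FC divided by the square root of F.

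The titles give the replicate numbers 1 to 3, while the numbers within the library names match for replicate 1 alone. Over genes, deviations from the group means of same-numbered libraries correlated at 0.330, 0.437 and 0.396. Those of all other pairs were negative, from -0.0700 to -0.344. Deviations cancel out within a group, so positive values have to be offset by negative ones, which are no separate evidence of pairing. On the same-numbered values the number was used as a block in a second fit, a choice made on the same data as the tests. The paper speaks of individuals for the EGF libraries with and without collagen I. Neither the paper nor the labels say which CYST and UG-LIKE libraries share an animal. P-values without the block therefore measure the spread between these libraries, and those with it the spread left after the replicate number is taken out.

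The gene lists, their members and the rule for named genes were chosen with earlier results of these data known, and the lists therefore carry counts and medians but no test. The named genes were up to 4 members per list by p, DEGs without the block before those with it, or the 2 highest in TPM where a list had no DEG; the 8 upregulated and 8 downregulated DEGs of smallest p outside the S and G2/M lists of Seurat 5.3.0; the 5 upregulated and 5 downregulated genes of largest Log2FC that failed the TPM criterion alone; and the cell type markers. All others were named after their values were seen. Symbols came from the files. Of 2809 genes without one, 979 were matched to a RefSeq gene of the same assembly (ARS-UCD2.0) that overlapped by at least 50% of the length of both. Intervals are exact at 95% and, like counts of amplified reads without molecular identifiers, cover counting error only. The tests were tested on simulated data, and the alternatives used DESeq2 1.42.0 and limma 3.58.1. Figures were drawn with matplotlib 3.10.9. All per-sample columns were mapped to samples. No sequence is shown, as none was used here. The result of 1 of the 34 lists is not reported here.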

Additional observations from a re-analysis of the deposited data

How the results depend on the processing

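The counts of 87 DEGs higher in UG-LIKE and 88 DEGs lower in UG-LIKE depended on single libraries and on the replicate number. With the replicate block they were 354 and 372, with all 9 libraries 183 and 148, with all 9 libraries and the block 435 and 404, and with DESeq2 340 and 363. Alternatives chosen after seeing the data gave 425 and 453 with DESeq2 and the block, and 427 and 421 with the block and TPM above 1 asked of the higher group mean. Within a factor of 1.5 stayed RLE size factors (87 and 86), no filter on low counts (122 and 118), limma on log2(TPM + 1) (117 and 79), the TPM criterion on the higher group mean (101 and 101) and no fold criterion (88 and 101). Leaving out 1 library gave 1 to 124 upregulated and 4 to 103 downregulated DEGs, lowest without CYST replicate 2 and highest without CYST replicate 3. Leaving out a replicate number of both groups from the block fit, also chosen after seeing the data, gave 16 and 12 without number 1, 246 and 283 without number 2, and 490 and 499 without number 3. The sign of all 175 DEGs was the same in every alternative, as was that of the 726 DEGs of the block fit in the fits without a replicate number. Both sets were selected for a large difference in the same libraries, so their kept signs are a description and no added support. The medians of the 34 lists kept their sign in 28 to 34 lists, depending on the setting. Of the 111 named genes, the block changed the call of 61, all to a call, and of 0 in the other direction. The rule for named genes took in genes called only with the block, so these counts follow from the rule. Depth limits the genes under the filter, 8605 of 20679, for which no statement is made.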

Other observations

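Gene families were picked by symbol after the values had been seen, so their counts are a description. With the block, 2.93% of all genes tested were upregulated and 3.08% downregulated. Of 37 tested mitochondrial carriers 18 had a Log2FC above 0 (median -0.0406), of 9 MCM genes of DNA replication 1 (median -1.50), and of 5 beta-1,3-N-acetylglucosaminyltransferases 4 (median 0.79). Of 13 tested S100 genes, small calcium-binding proteins that are often high in surface epithelia, 11 had a Log2FC above 0 (median 1.05), and 6 were upregulated with the block. S100A4 was a DEG without it, at 57.1, 65.9 and 83.7 TPM in the CYST group and 259, 428 and 587 TPM in the UG-LIKE group (Log2FC 2.59 ± 0.369 SE, adjusted p = 0.0269). All 3 tested uroplakins, plaque proteins of the urothelium, were upregulated with the block, such as UPK1B from 16.1, 8.73 and 49.9 TPM to 79.0, 76.5 and 217 TPM (Log2FC 2.49, adjusted p = 0.00402). Of 9 clade B serpins, intracellular protease inhibitors, 8 were above 0 (median 1.05), 3 were upregulated with the block, and SERPINB9, described above, lay below 0.

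Enzymes of sialic acid, the sugar that caps many mucins, were DEGs in both directions. CMAH, which hydroxylates the activated sugar, measured 3.79, 7.97 and 9.59 TPM in the CYST group and 53.6, 73.0 and 73.5 TPM in the UG-LIKE group (Log2FC 3.18 ± 0.40 SE, adjusted p = 0.0216). SIAE, which removes its acetyl groups, was upregulated at a Log2FC of 1.33 (adjusted p = 0.0482), and NPL, which degrades the free sugar, downregulated from 15.7, 15.7 and 24.1 TPM to 1.55, 2.18 and 3.87 TPM (Log2FC -2.89 ± 0.460 SE, adjusted p = 0.0349). Among genes without a symbol, the one at DMBT1, a secreted mucosal defence protein (chr26:42390384-42492211), measured 77.6, 34.3 and 13.9 TPM in the CYST group and 584, 491 and 39.1 TPM in the UG-LIKE group and was called with the block (Log2FC 2.76, adjusted p = 0.0153). The gene at SAA3, an acute-phase protein, measured 804, 251 and 3612 TPM against 66.1, 39.6 and 2128 TPM, lower in the UG-LIKE library of each pair (adjusted p = 0.0235 with the block and 0.714 without).

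The 3 libraries of EGF cultures with type I collagen entered only the alternative fits with all 9 libraries and were not compared with the other groups. In them GRP measured 318, 424 and 398 TPM, EDN1 26.7, 22.6 and 23.8 TPM, and MMP13 2303, 2710 and 1758 TPM.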
